A study of Homo sapiens with 6 samples.

Results

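The E2F and DP transcription factors were examined in A375 cells, a BRAF-mutant line established from a human melanoma, after exposure to BMH-21. The 10 genes E2F1 to E2F8, TFDP1 and TFDP2 were found by symbol among 25548 gene rows, and each had 1 row. BMH-21 is a DNA-intercalating compound that blocks transcription of ribosomal RNA genes by RNA polymerase I. Both groups came from the same line grown in DMEM with serum. Per the labels, 3 samples were exposed to 1 µM BMH-21 during 6 h, and the other 3 had the vehicle DMSO as control. The titles put the controls at 0 h, so that the effect of the drug cannot be told apart from that of further culture, and "with BMH-21" covers both. When the controls were collected is not stated in the labels.

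Levels are in FPKM, a fragment count per length of transcript and depth of the library, which allows levels of different genes to be set side by side. The deposited columns titled as replicates behaved as 1 FPKM estimate per group between 2 bounds. In each group the leading column lay midway between the following 2 in 99.9% of rows without a 0. Values of single libraries and their spread were therefore not analysed, no test was possible, and sequencing depth was unknown. A gene is called separate where the bounds of the groups do not overlap, which is a description and not a test over replicates. Its difference is log2(FPKM + 1) with BMH-21 minus control, and the value after ± is its half-width, computed from the bounds in control and BMH-21. Among 12757 genes that reached 1 FPKM in either group, short RNA rows left out, 3.58% were separate and higher with BMH-21 and 3.14% separate and lower, so that 53.3% of separate genes were higher, or 40.4% when both groups were rescaled to the same total without short RNA rows. Of the melanoma markers, SOX10 was at 97.0 FPKM in control and 90.0 FPKM with BMH-21, while MLANA, PMEL, DCT, TYR and TYRP1, which serve pigment production, did not reach 1 FPKM in either.

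E2F proteins bind a short GC-rich element in the promoters of genes needed for DNA replication and cell division. E2F1, E2F2 and E2F3 activate these genes once the retinoblastoma protein RB1 has been phosphorylated and lets go of them. E2F4 and E2F5 act mainly as repressors with the RB1 relatives RBL1 and RBL2, and E2F6 represses through polycomb proteins without binding pocket proteins. These members pair with a DP protein, encoded by TFDP1 or TFDP2, to hold DNA. The atypical members E2F7 and E2F8 carry a duplicated DNA-binding domain, need no DP partner and repress E2F target genes, E2F1 among them. E2F7 is also a known target of p53.

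The promoters of the 3 activator genes and of E2F7 are shown because E2F genes are themselves known targets of E2F, and because E2F1 and E2F2 lay on the other side of control from E2F7. Each line gives the 80 bases before the annotated start, 5′ to 3′ on the gene's strand, from RefSeq on build GRCh38.p14. Capitals mark matches on either strand to the E2F consensus in its 4 spellings TTTCCCGC, TTTGGCGC, TTTCGCGC and TTTGCCGC, or to TTTCGCGG, which was chosen after the promoters had been read.
E2F1 (chr20:33686386-33686465, minus strand): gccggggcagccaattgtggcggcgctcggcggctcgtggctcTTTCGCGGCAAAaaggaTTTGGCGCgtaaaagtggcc
E2F2 (chr1:23531234-23531313, minus strand): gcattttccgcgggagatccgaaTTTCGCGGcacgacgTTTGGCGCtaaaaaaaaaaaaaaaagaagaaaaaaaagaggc
E2F3 (chr6:20401799-20401878, plus strand): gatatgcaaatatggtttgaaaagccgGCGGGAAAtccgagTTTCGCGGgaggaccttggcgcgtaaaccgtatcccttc
E2F7 (chr12:77065570-77065649, minus strand): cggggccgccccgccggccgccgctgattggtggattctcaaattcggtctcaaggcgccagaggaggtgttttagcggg

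In E2F1 the element TTTGGCGC began at position -20 and TTTCGCGG at -37, counted from the start site, and the latter overlapped TTTGCCGC read on the opposite strand. In E2F2 the same elements began at -42 and -57. In E2F3 TTTCGCGG began at -39, and TTTCCCGC lay on the opposite strand from -53. RefSeq gives E2F3 a second start, and the 80 bases before it, not shown, held none of the 5 spellings. None of these spellings lay in the 80 bases shown for E2F7, and other forms of the element were not searched. RefSeq windows of 250 bases before a start were found for 8 of the 10 genes, not for E2F5 and E2F8. Of these 8 genes, 4 held a consensus spelling in a window, namely E2F1, E2F2, E2F3 and TFDP1, against 3.40% of all 27305 genes with windows of that length. TTTCGCGG was in a window of 0.428% of all 27305 genes. It was chosen after the promoters had been read, so that its presence in them is no evidence of enrichment. E2F3 and TFDP1, which held a consensus spelling, had overlapping intervals in control and BMH-21. Any part of these elements in the expression differences was not tested. A match of letters is not a measured binding site, and no coordinate here was used to read the expression table, whose processing notes name the build GRCh37.

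Of the 10 genes, 3 were lower with BMH-21 and 1 was higher with separate intervals, and 6 overlapped. The lower genes were E2F1, E2F2 and E2F8, and the higher one was E2F7. The lower genes thus came from the activators and the atypical repressors, and the higher one from the latter class. The share of 40.0% that was separate compares with 6.72% of all measured genes, but the genes were chosen with results of these data known and their number is small. The median difference over the 10 was -0.02, against 0.03 over all measured genes. In these bulk samples, fewer cells in a cell cycle phase and less mRNA per cell cannot be told apart.

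**Figure D1:**
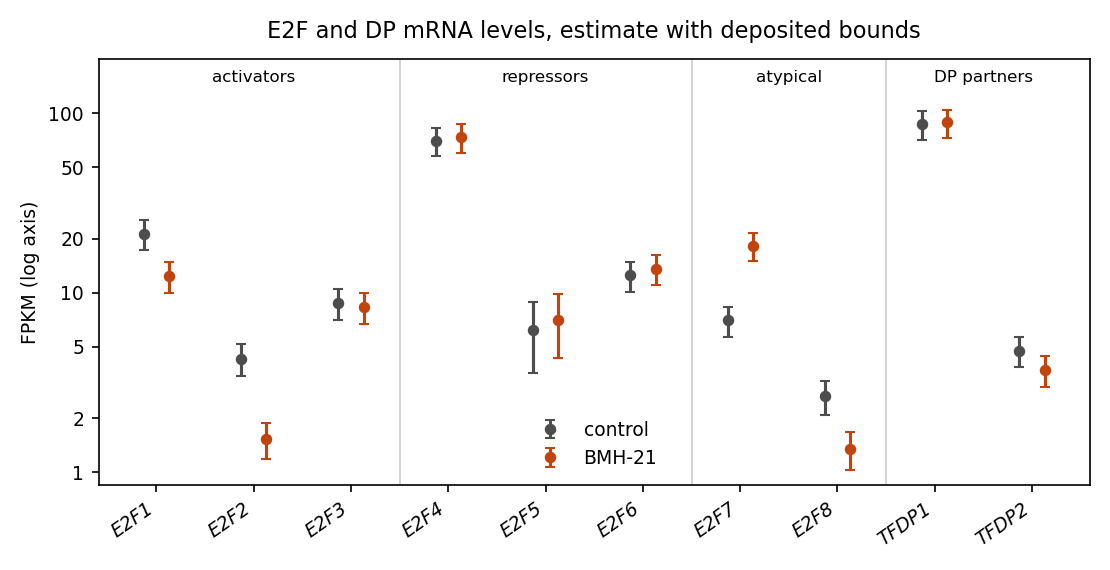
FPKM estimates (points, log axis) with the deposited lower and upper bounds (bars) for the 10 genes in control (grey) and BMH-21 (orange), ordered by class. E2F1, E2F2 and E2F8 lie lower and E2F7 higher with BMH-21 without overlap of the bars, while those of the other 6 genes overlap.

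Among the activators, E2F1 stood at 21.3 FPKM in control (bounds 17.3 to 25.3) and at 12.4 FPKM with BMH-21 (bounds 9.99 to 14.8). It was 1.72-fold lower, a difference of -0.74 ± 0.37 that ranked 114th from the lowest of 12757 genes. The intervals did not touch, and the lower control bound was 1.17-fold above the upper bound with BMH-21. E2F2, the least abundant activator, was at 4.29 FPKM in control (bounds 3.42 to 5.15) and at 1.53 FPKM with BMH-21 (bounds 1.18 to 1.87). Its difference of -1.07 ± 0.31 ranked 18th from the lowest, and its facing bounds were 1.83-fold apart, a wider gap than that of E2F1. E2F3 overlapped, at 8.74 FPKM in control (bounds 7.08 to 10.4) and 8.32 FPKM with BMH-21 (bounds 6.72 to 9.92). The ratio of its estimates was 0.952, and the bounds allowed ratios from 0.646 to 1.40. The E2F3 locus makes a long and a short protein from separate promoters, which a value per gene does not resolve.

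The repressors that work with pocket proteins or polycomb proteins overlapped throughout. E2F4, the most abundant E2F, was at 70.2 FPKM in control (bounds 57.4 to 82.9) and 73.5 FPKM with BMH-21 (bounds 60.2 to 86.8). Its difference of 0.07 ± 0.37 turned to -0.01 under quantile normalization. E2F6 was at 12.5 FPKM in control (bounds 10.1 to 14.9) and 13.6 FPKM with BMH-21 (bounds 11.1 to 16.2), a ratio of 1.09. E2F5 was at 6.21 FPKM in control (bounds 3.57 to 8.86) and 7.07 FPKM with BMH-21 (bounds 4.33 to 9.81). Its bounds extended 42.6% of the estimate to either side in control, whereas those of the other 9 genes extended between 18.1% and 24.1% in both groups. Taken at opposite ends, the E2F5 bounds therefore allowed any ratio from 0.488 to 2.75. Its difference was 0.16 ± 0.75, against 1.27 ± 0.35 for E2F7.

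Some of these rows may share reads with other genes. In GENCODE 29, exons of E2F5 overlap exons of C8orf59 on the opposite strand, and exons of E2F5 and E2F8 each overlap an antisense RNA. The kit was stranded, but whether the counting used the strand is not stated in the labels. The same annotation lists 4 processed pseudogenes of E2F6, 2 of E2F3 and 1 of E2F4, and how reads shared with such copies were handled is not given either.

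The atypical repressors went in opposite directions. E2F7 was at 6.997 FPKM in control (bounds 5.66 to 8.33) and at 18.2 FPKM with BMH-21 (bounds 14.9 to 21.5). It was 2.61-fold higher, a difference of 1.27 ± 0.35 that ranked 68th from the highest, and its facing bounds were 1.79-fold apart. E2F8 was at 2.65 FPKM in control (bounds 2.09 to 3.22) and at 1.35 FPKM with BMH-21 (bounds 1.03 to 1.68). It was 1.96-fold lower, a difference of -0.64 ± 0.30 that ranked 217th from the lowest, with facing bounds 1.24-fold apart. The level of E2F7 was thus 2.64 times that of E2F8 in control and 13.5 times with BMH-21. E2F2 and E2F8 were both under 2 FPKM with BMH-21, where the pseudocount of 1 understates differences, and with a pseudocount of 0.1 these were -1.43 for E2F2 and -0.92 for E2F8.

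**Figure D2:**
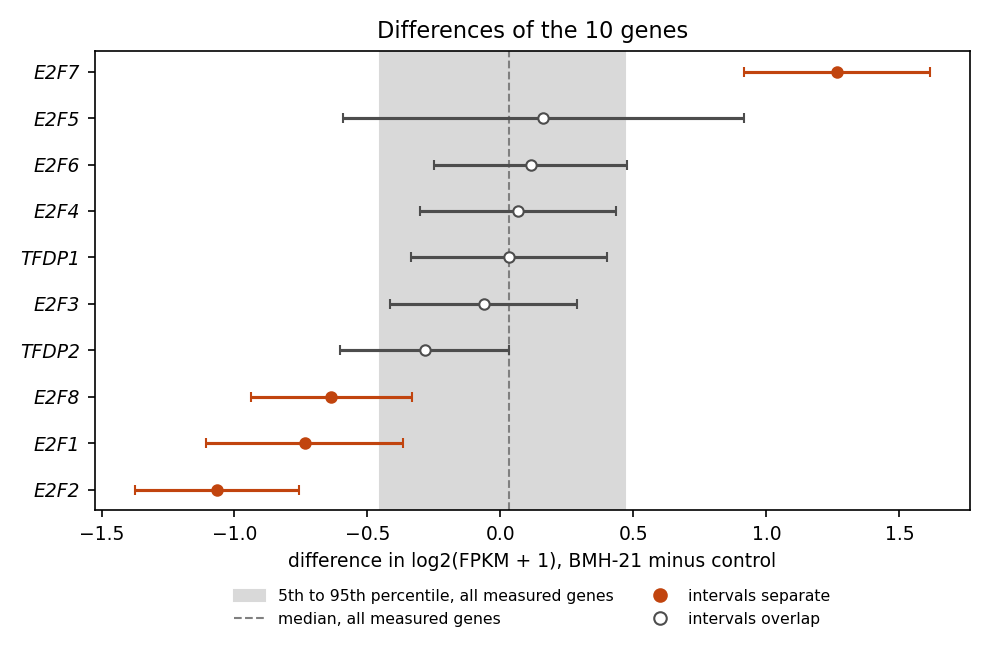
Differences in log2(FPKM + 1), BMH-21 minus control, with half-widths combined from the deposited bounds; filled orange points have separate intervals, open points overlapping ones. The grey band spans the 5th to the 95th percentile of all 12757 measured genes, and E2F7, E2F8, E2F1 and E2F2 lie outside it.

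The DP partners showed no separation. TFDP1, the most abundant of the 10 genes, was at 86.7 FPKM in control (bounds 71.0 to 102) and 88.7 FPKM with BMH-21 (bounds 72.6 to 105). Its difference of 0.03 ± 0.37 fell below 0 under each of 3 other scalings, to between -0.08 and -0.01. TFDP2 was at 4.74 FPKM in control (bounds 3.84 to 5.63) and 3.71 FPKM with BMH-21 (bounds 2.99 to 4.43). Its difference of -0.28 ± 0.32 lay within its half-width. TFDP1 exceeded TFDP2 by 18.3 times in control and 23.9 times with BMH-21.

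The order of levels changed in its middle. In control it ran from TFDP1 through E2F4, E2F1, E2F6, E2F3, E2F7, E2F5, TFDP2 and E2F2 to E2F8. Neighbours in this order overlapped except that E2F4 was separate from E2F1, E2F1 from E2F6, and E2F2 from E2F8. With BMH-21, E2F7 moved from the sixth place to the third, and E2F1 from the third to the fifth. E2F6 then lay between E2F7 and E2F1 and overlapped each of them, the bounds of E2F7 and E2F1 themselves were narrowly apart (14.92 against 14.82 FPKM), and E2F2 overlapped E2F8 at the low end. The ratio of E2F7 to E2F1 estimates was 0.328 in control and 1.47 with BMH-21.

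Summed by class, the activators came to 34.4 FPKM in control (bounds 29.9 to 38.8, combined in quadrature) and 22.3 FPKM with BMH-21 (bounds 19.3 to 25.2), which were separate. The atypical repressors came to 9.65 FPKM in control (bounds 8.20 to 11.1) and 19.6 FPKM with BMH-21 (bounds 16.3 to 22.9), also separate, with E2F7 alone accounting for the higher sum. Quadrature treats the bounds of different genes as independent, and both classes were still separate when the bounds were simply added. The activators thus held 3.56 times the summed level of the atypical repressors in control and 1.14 times with BMH-21. E2F4, E2F5 and E2F6 together made up 66.9% of the summed E2F level in control and 69.2% with BMH-21. The sum over all 8 E2F genes was 133 FPKM in control and 136 FPKM with BMH-21, and its ratio of 1.02 turned to between 0.979 and 0.997 under 3 other scalings. These are levels of mRNA, and protein was not measured.

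**Figure D3:**
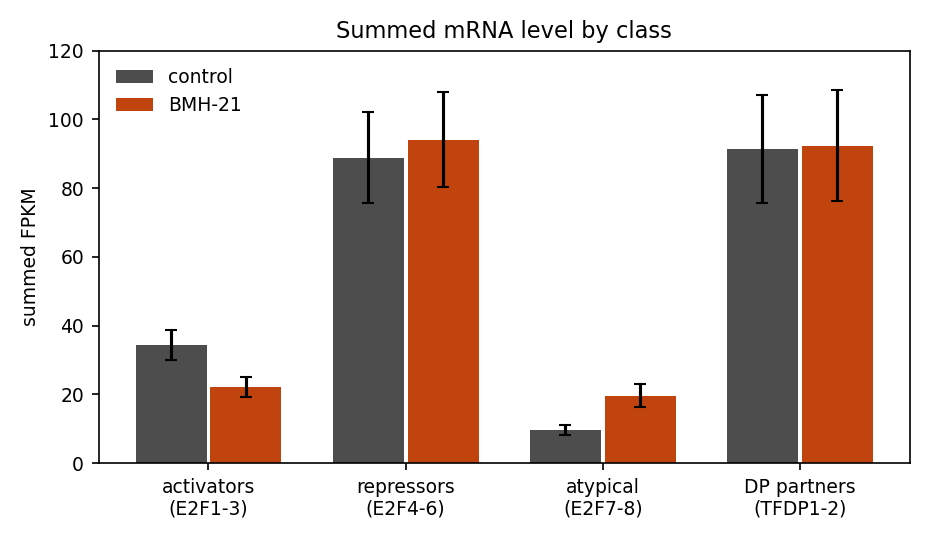
Summed FPKM of each class (bars from 0) in control (grey) and BMH-21 (orange), with bounds combined in quadrature. Activators went from 34.4 FPKM to 22.3 FPKM and atypical repressors from 9.65 FPKM to 19.6 FPKM, while the bounds of the repressors and of the DP partners overlapped.

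The proteins that E2F and DP work with come next, in lists whose members are ranked by difference and not by level. Of 9 genes of the pocket proteins, of the MuvB core that joins them in the DREAM complex, and of B-MYB, 0 were separate, against 6.72% of all measured genes, and the median difference was -0.09. RB1, which restrains the activators, had the highest difference, at 25.1 FPKM with BMH-21 against 23.5 FPKM in control. RBL1, the partner of E2F4 that is itself an E2F target, had the lowest difference, at 7.21 FPKM against 8.82 FPKM. Of 12 genes of the polycomb complex found with E2F6, 0 were separate and the median difference was 0.05, falling to between -0.01 and 0.01 under 3 other scalings. With so few genes, a count of 0 in either list is near that background share. RYBP had the highest difference, at 16.4 FPKM with BMH-21 against 12.2 FPKM, and L3MBTL2 the lowest, at 5.60 FPKM against 7.73 FPKM. Both differences exceeded their half-widths (0.40 ± 0.36 and -0.40 ± 0.37) although the intervals overlapped. By that looser rule 7.19% of all measured genes were higher and 7.06% lower, and among the 10 E2F and DP genes the same 1 and 3 as before.

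Upstream of RB1, 1 of 16 measured cyclins, kinases and inhibitors was higher with BMH-21, 0 were lower and 15 overlapped, with a median difference of -0.07. Over all measured genes 3.58% were higher and 3.14% lower, so that these counts are near the background. The higher gene was CDKN1A, whose product p21 inhibits the kinases that phosphorylate pocket proteins, at 329 FPKM with the drug (bounds 269 to 388) and 33.5 FPKM without (bounds 27.3 to 39.8). CDKN1B, which encodes a related inhibitor, had the next highest difference, at 37.5 FPKM against 32.6 FPKM, and overlapped. The lowest difference was that of CCNE2, a cyclin of S-phase entry and an E2F target, at 7.49 FPKM with the drug (bounds 4.39 to 10.6) and 12.4 FPKM without (bounds 8.42 to 16.5), which overlapped.

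Downstream, 9 of 58 G1/S and replication targets of E2F were lower with BMH-21, 0 were higher and 49 overlapped. The share lower was 15.5%, against the 3.14% of all measured genes given above. The estimates of 52 (89.7%) were below control, against 44.8% of all measured genes. The list was chosen with earlier results of these data known, so that neither share is independent evidence. The median difference was -0.24, or between -0.31 and -0.27 under 3 other scalings. Of the 58 genes, 4 are also in the list upstream of RB1 and 2 in that of the pocket proteins. The medians of these lists are therefore not independent. Among the separate genes with the lowest differences were CDT1, which licenses replication origins, at 7.93 FPKM against 19.5 FPKM, SLBP, which binds the stem-loop of histone mRNA, at 25.5 FPKM against 42.5 FPKM, the primase PRIM1 at 17.1 FPKM against 27.1 FPKM, TIPIN of the replication fork at 9.45 FPKM against 14.6 FPKM, and the helicase subunit MCM6 at 17.3 FPKM against 26.0 FPKM. These folds, from 2.46 for CDT1 to 1.51 for MCM6, span the 1.72-fold of E2F1 itself. All 6 subunits of the MCM2 to MCM7 helicase had lower estimates, but of these only MCM6 was separate. PCNA, the replication clamp and also a p53 target, had the highest difference, at 170 FPKM against 133 FPKM with overlapping intervals. A consensus E2F spelling lay in the 250 bases before a start in 19 of 49 of these genes with a window and in 3.40% of all 27305 genes. The list was drawn up from known E2F targets, so that this share is no independent evidence.

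Late cell cycle genes are those that DREAM represses and B-MYB activates. Of 24 such genes, 0 were separate, against 6.72% of all measured genes, and in a list of this size that count is near the background. The median difference was -0.0041, falling to between -0.09 and -0.04 under 3 other scalings. AURKA, a mitotic kinase, had the highest difference, at 78.7 FPKM against 62.0 FPKM, and FBXO5, an inhibitor of the anaphase-promoting complex that E2F also controls, the lowest, at 11.5 FPKM against 16.0 FPKM. Whether the difference between the G1/S and the late genes exceeds the spread between replicates could not be tested.

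Of 11 measured apoptosis genes known as targets of E2F1, 2 were higher, against 3.58% of all measured genes, 0 were lower, against 3.14%, and 9 overlapped. In a list this small 0 lower genes is the background value, and the median difference was 0.17. The higher ones were BBC3, a BH3-only activator of cell death, at 28.8 FPKM against 5.36 FPKM, and APAF1, the scaffold of the apoptosome, at 10.2 FPKM against 6.10 FPKM. Both are also known p53 targets, and any part of p53 in the differences reported here was not tested. TP73, a relative of p53, had the lowest difference, at 1.51 FPKM with the drug (bounds 0.925 to 2.10) and 2.94 FPKM without (bounds 1.94 to 3.93), overlapping by a small margin. PMAIP1, another BCL2 family member, had the highest difference of those that overlapped, at 27.2 FPKM against 19.4 FPKM. This list too was chosen with earlier results of these data known, so that its counts are no independent evidence.

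**Figure D4:**
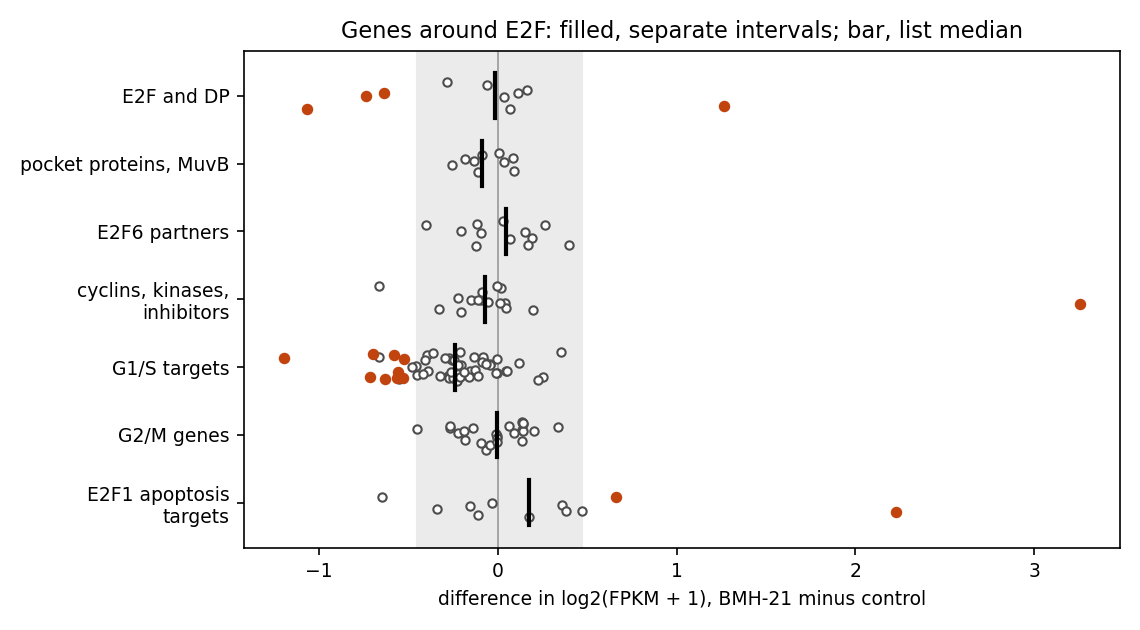
Differences in log2(FPKM + 1), BMH-21 minus control, of each measured gene in the E2F and DP set and 6 lists around it; filled points have separate intervals, black bars are list medians and the grey band spans the 5th to the 95th percentile of all measured genes. Of the 58 G1/S targets 52 lie to the left of 0, against 44.8% of all measured genes, with a median of -0.24. The late G2/M genes lie on both sides of 0.

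Summed over 6 keratinocyte markers the level was 12.3 FPKM in control and 12.9 FPKM with BMH-21. Over 5 leukocyte markers it was 4.65 FPKM and 5.10 FPKM, and over 3 endothelial markers 0.281 FPKM and 0.301 FPKM. Only 2 keratinocyte, 1 leukocyte and 0 endothelial markers were measured, and 0 were separate, against 6.72% of all measured genes. With so few measured, a count of 0 is near that share. In control, KRT10 alone held 10.4 FPKM of the keratinocyte sum and LYZ alone 4.39 FPKM of the leukocyte sum. Summed over 6 fibroblast markers the level was 4.71 FPKM in control and 9.34 FPKM with BMH-21. Of these, COL1A1, COL1A2 and COL3A1 stayed under 1 FPKM. Among the 3 measured markers 2, DCN and LUM, were separate and higher, against 3.58% of all measured genes. LUM reached 1 FPKM in both groups. DCN was at 0.419 FPKM in control and 2.498 FPKM with BMH-21, and was measured only through the group in which it was higher. The share of 2 in 3 thus rests in part on the filter at 1 FPKM in either group. Of 12 melanoma markers 7 were measured, of which 3 were lower with separate intervals, against 3.14% of all measured genes, namely MITF, S100B and EDNRB, and 0 were higher. The intervals of these 3 were narrowly apart. The upper bound with BMH-21 and the lower control bound were 6.42 against 6.45 FPKM for MITF. They were 8.78 against 9.11 FPKM for EDNRB and 21.5 against 23.1 FPKM for S100B. The summed level of all 12 was 188 FPKM in control and 154 FPKM with BMH-21. The part of these marker differences in the E2F results was not tested.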

How the data were processed

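Per the labels' protocols, RNA was isolated with Trizol and sequenced from stranded total RNA libraries (Illumina TruSeq). The deposited table holds FPKM values made by the authors, in 3 columns per group. TopHat2, Cuffdiff 2.0 and GRCh37 appear in the submitters' processing notes, which state no role or setting, and the gene annotation used is not known here. Within a relative tolerance of 0.0001 the leading column lay midway between the other 2 in 16203 of the 16213 rows without a 0 in control, and in 15872 of 15881 with BMH-21. It was read as the group estimate and the others as its bounds, of unknown confidence level. Groups came from the treatment labels.

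Differences used log2(FPKM + 1). A gene counted as measured if it reached 1 FPKM in either group, and 317 short RNA rows were left out by symbol or RefSeq biotype. Rows whose estimate lay outside its bounds were never called separate. Half-widths of both groups on the log2 scale were combined as the root of summed squares. The code of the separation rule was run on simulated data, with changes larger than that of E2F1 and bounds of a set width. That run checked the code, and it does not show how the rule performs on these samples. All 10 members are named. In each other list up to 6 separate genes per direction and the highest and lowest overlapping gene are named, and marker genes were named after their values were seen. Values of 1 gene that this rule names are not reported here. Members and lists were chosen with earlier results of these data known. The design allowed for limma if the columns had been libraries, and it was not run. Python 3.11.15, pandas 2.3.3 and matplotlib 3.10.9 were used.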

Additional observations from a re-analysis of the deposited data

How the results depend on the processing

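Under 7 alternatives (another pseudocount, 3 scalings, 2 filters and another rule for calling a difference) all 10 members kept their call wherever they were still measured. E2F1 ranged from -0.80 to -0.74, E2F2 from -1.43 to -1.07, E2F7 from 1.21 to 1.37 and E2F8 from -0.92 to -0.64. With genes at 5 FPKM or more, 1 member was lower instead of 3, because E2F2 and E2F8 fall under that filter. TFDP2, whose intervals overlapped, falls under it as well. When a gene was called where its difference exceeded its half-width, a rule met by 7.19% of all measured genes upward and 7.06% downward, 15 G1/S targets were lower, 1 E2F6 partner was higher and 1 lower, 1 late cell cycle gene was lower, and 4 apoptosis targets were higher and 2 lower. The class totals kept their calls under each scaling and with bounds simply added, the latter an alternative chosen after seeing the data. No paired analysis was possible because the columns hold group estimates with bounds and not libraries, and leaving out single replicates was not run for the same reason. FPKM holds no read totals, so that depth could not be weighed, and with the narrowest bounds of the 10 genes, 18.1% to either side, intervals separate only beyond a ratio of 1.44.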
